A study of Mus musculus with 24 samples.

Results

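A set of 10 genes that carry or restrain the LPS signal between the surface of a macrophage and its first kinases was read out of RNA sequencing of bone marrow-derived macrophages (BMDMs). They were the co-receptors Cd14 and Ly96, the adaptors Myd88, Tirap, Ticam1 and Ticam2, and the IRAK family members Irak1, Irak2, Irak3 and Irak4. They were chosen by name for these roles. All 10 of them were found by symbol among the 24273 genes of the normalised table, and all 10 were among the 13901 genes that passed a filter on low values and were tested. BMDMs of the C57BL/6 strain were grown from bone marrow for 7 days in L-cell conditioned medium, then left untreated (0 h) or stimulated with LPS at 100 ng/ml for 0.5, 1 or 2 h. The controls were LysM-Cre macrophages, and FosKO macrophages were LysM-Cre Fos-fl/fl, so every group carried the Cre gene, which sits at the lysozyme locus Lyz2 and is active in myeloid cells. The study's text gives its LysM-Cre controls a floxed Fos allele as well (Fos fl/+), which the deposited design text does not mention. Each of the 8 groups had 3 libraries, which made 24. The study's methods call them biological replicates without saying whether they came from separate mice, so p-values measure the spread between these libraries.

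LPS is handed by CD14 to MD-2, the product of Ly96, which sits on the outer face of Toll-like receptor 4 (TLR4). Inside the cell TIRAP brings MyD88 to the receptor at the plasma membrane, and MyD88 assembles IRAK4 with IRAK1 and IRAK2, which drives NF-κB and MAP kinase signalling. After uptake of the receptor into endosomes, TRAM (Ticam2) brings in TRIF (Ticam1), which leads to type I interferon, while IRAK-M (Irak3) restrains the MyD88 branch.

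Each value is an expression level on the log2 scale that the authors had normalised, so a difference of 1 is 2-fold. A difference was called at a Benjamini-Hochberg adjusted p under 0.05 from a limma fit to all 24 libraries. The level of Fos did not follow the labels at 3 of the 4 times, whereas its induction was lost in the libraries labelled FosKO. Its mean was 11.11 ± 0.05 (SD, n = 3) in LysM-Cre and 12.60 ± 0.17 in FosKO libraries at 0 h, and the FosKO libraries also exceeded LysM-Cre by 1.64 at 1 h and by 3.29 at 2 h, but were lower at 0.5 h, by a log2 difference of -0.77. By 0.5 h LPS raised Fos by 2.41 in LysM-Cre (adjusted p = 1.6e-14) and by 0.15 in FosKO, not called, and these rises differed by -2.26 (adjusted p = 1.4e-09). Reads from a part of the gene that Cre does not remove cannot be told apart here from an intact transcript, and the groups are used below as labelled. Lyz2, which carries the Cre gene, exceeded its LysM-Cre level in FosKO libraries by 4.89 to 5.17 at the 4 times. The 18S ribosomal RNA gene Rn18s-rs5 was at 16.65 to 17.00 in 5 libraries, of which 2 were LysM-Cre at 1 h and 1 each was LysM-Cre at 0.5 h, FosKO at 0.5 h and FosKO at 1 h, against 18.57 to 19.39 in the others. All 6 macrophage markers were expressed. Adgre1, Csf1r and Itgam overlapped between the genotypes, while Mertk was at 9.07 to 9.98 in LysM-Cre and 10.66 to 10.99 in FosKO libraries, Fcgr1 at 12.20 to 12.74 and 12.98 to 13.70, and Cd68 at 15.05 to 15.14 and 15.21 to 15.38. Of 7 neutrophil markers 3 passed the filter, and their list summed on the linear scale to 70.5 to 145 in LysM-Cre and 46.4 to 77.4 in FosKO libraries, against 127150 or more for the macrophage markers. Ly6g and Elane were at the lowest values of the table and no B cell, T cell, mast cell or erythroid marker passed the filter. Of 5 dendritic cell markers 2 passed, and their list summed on average to 31.4 at 0 h and 116 at 2 h in LysM-Cre, and to 34.0 and 86.4 in FosKO. Of 4 fibroblast and stroma markers 3 passed, with sums of 36.2 and 68.2 in LysM-Cre and 27.0 and 70.1 in FosKO. The part of 18S content and of other cells in the differences below was not tested beyond the values given beside them.

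Between the genotypes, Irak2 and Myd88 were higher in the libraries labelled FosKO at all 4 times, by up to 1.48-fold and 1.35-fold, and Irak1 was lower at all 4 times, to between 0.92 and 0.94 of its LysM-Cre level, where 11.4% of all tested genes were called higher and 7.11% lower at all 4 times. Cd14, Ticam1 and Irak4 were called at 2 times each, Ly96 and Tirap only at 2 h, and Ticam2 and Irak3 at none. At 0 h 6 of the 10 genes were called, 4 higher and 2 lower, where 35.4% of all tested genes were called, 19.5% higher and 15.9% lower. At 0.5 h 5 were called, 4 higher and 1 lower, against 40.9% of all genes, 21.2% higher and 19.7% lower. After 1 h 3 were called, 2 higher and 1 lower, against 33.9%, or 18% and 15.9%. After 2 h 6 were called, 4 higher and 2 lower, against 44.6%, or 24.4% and 20.3%. Whether 10 genes with these counts differ from the background was not tested. After quantile normalisation the members called higher and lower were 3 and 2 at 0 h, 0.5 h and 2 h and 2 and 1 at 1 h. The median difference of the 10 genes was 0.08, 0.10, 0.04 and 0.05 at 0, 0.5, 1 and 2 h, where the median of all tested genes lay between -0.00 and 0.00, and the median size of the difference was 0.12, 0.10, 0.06 and 0.13 against 0.12, 0.14, 0.12 and 0.15. No member reached a 2-fold difference between genotypes at any of the 4 times, where 1.47%, 2.16%, 1.7% and 1.99% of all genes were called with one.

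**Figure D1:**
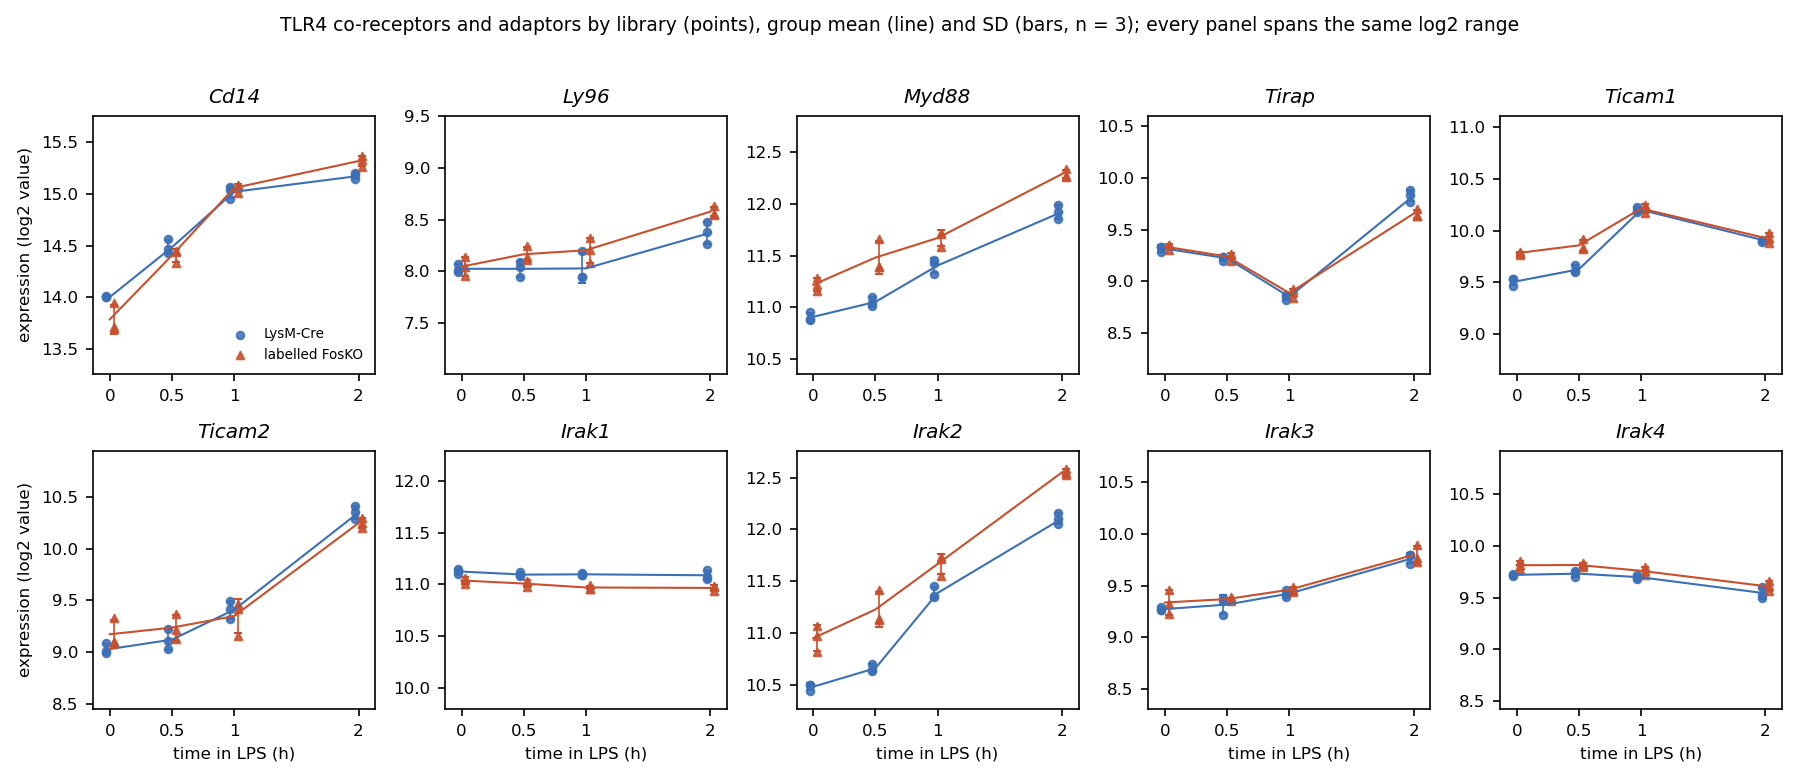
Expression (log2 value, vertical axis) of the 10 genes against time in LPS (h, horizontal axis), with each library as a point, group means joined by lines and bars for the SD (n = 3), in blue for LysM-Cre and red for libraries labelled FosKO. Irak2 climbs from a group mean of 10.48 to 12.11 in LysM-Cre and from 10.95 to 12.55 in FosKO, Tirap dips to 8.85 at 1 h in LysM-Cre before it rises, and Irak1 stays between 10.94 and 11.15 in all libraries.

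Cd14 encodes the co-receptor that delivers LPS to MD-2 and TLR4 (chromosome 18, chr18:36725067-36726798, minus strand, GRCm38). Its libraries in LysM-Cre were at 14.01, 14.00 and 14.00 before LPS, 14.43, 14.46 and 14.56 after 0.5 h, then 14.95, 15.04 and 15.07 after 1 h and finally 15.14, 15.18 and 15.20 after 2 h. The libraries labelled FosKO were at 13.95, 13.71 and 13.70, then 14.44, 14.33 and 14.45, then 15.07, 15.01 and 15.09, and last 15.33, 15.27 and 15.37. Cd14 was thus lowest in the untreated FosKO libraries and highest in the same genotype at 2 h, and neither of these groups overlapped with its LysM-Cre counterpart, whereas at 0.5 h and 1 h the genotypes overlapped. It rose within 0.5 h of LPS in both genotypes, by 0.48 ± 0.05 (SE) in LysM-Cre (adjusted p = 1.6e-06) and 0.62 in FosKO (adjusted p = 4e-08), the only member called that early in both. At 2 h the rise was 1.17 in LysM-Cre, or 2.25-fold, and 1.53 in FosKO, or 2.89-fold, and after quantile normalisation it was 0.73 and 0.98, both still called.

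The rise of Cd14 by 2 h was larger in the libraries labelled FosKO, by 0.36 ± 0.08 (SE, adjusted p = 0.0023), and at 1 h the same difference was 0.25 ± 0.08 (adjusted p = 0.16). Before LPS, Cd14 was lower in FosKO by a log2 difference of -0.22 ± 0.05 (adjusted p = 0.0033), or -0.38 after quantile normalisation. At 2 h it was 0.14 ± 0.05 higher (adjusted p = 0.034), but this direction depended on scaling, since quantile normalisation gave -0.12 with no call, and at 0.5 h the same normalisation gave a called difference of -0.22. The call at 2 h was also lost with TMM factors (0.12, adjusted p = 0.075), with no filter on low values (adjusted p = 0.052) and without any one of LysM-Cre replicates 1 and 2 or FosKO replicates 1 and 3, where the adjusted p reached 0.12. The differences at 0 h and in the rise by 2 h kept their calls in every setting tried, with adjusted p of at most 0.0402 and 0.0409.

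Ly96 encodes MD-2, the protein that binds the lipid part of LPS inside the receptor complex (chr1:16688051-16709611, plus strand). Its 24 libraries lay between 7.94 and 8.63. At 2 h the LysM-Cre libraries were at 8.26, 8.48 and 8.38 and the libraries labelled FosKO at 8.56, 8.55 and 8.63, all above every earlier library of their own genotype. Ly96 did not move at 0.5 h or 1 h in LysM-Cre beyond an interval of -0.15 to 0.16, then rose by 0.35 ± 0.07 (SE) by 2 h (adjusted p = 0.00034), and by 0.53 in FosKO (adjusted p = 2.2e-06). The genotypes differed at 2 h, by 0.20 ± 0.07 (adjusted p = 0.028), a call that was lost in fits without replicate 1 or 3 of LysM-Cre or without FosKO replicate 3. At 1 h the difference of 0.18 was not called (adjusted p = 0.072), but it was called with a replicate block (adjusted p = 0.028), and without LysM-Cre replicate 2 or FosKO replicate 1. The fit of high 18S libraries also called it, but holds a single LysM-Cre library at 1 h, which is assumed to vary like the other groups. The difference was 0.32 among the libraries with high 18S and 0.01 among those with low 18S. The rise of 0.16 by 1 h in FosKO was likewise not called (adjusted p = 0.11), but was with a replicate block (adjusted p = 0.048), after quantile normalisation, with high 18S libraries only and without FosKO replicate 1 at 1 h. Cd14 was thus called from 0.5 h in both genotypes, and Ly96 at 0.5 h in neither.

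Myd88 encodes the adaptor of the early branch (chr9:119335934-119341411, minus strand). In LysM-Cre the libraries were at 10.95, 10.88 and 10.89 before LPS, 11.01, 11.05 and 11.10 after 0.5 h, then 11.32, 11.43 and 11.46 after 1 h and finally 11.86, 11.92 and 11.99 after 2 h. In the libraries labelled FosKO they were at 11.16, 11.21 and 11.28, then 11.39, 11.39 and 11.66, then 11.58, 11.72 and 11.71, and at 2 h 12.27, 12.26 and 12.34. Every FosKO library lay above every LysM-Cre library of the same time, and the untreated FosKO libraries already lay above LysM-Cre at 0.5 h. The genotype difference was 0.31 ± 0.06 (SE) at 0 h (adjusted p = 0.00032), 0.43 at 0.5 h (adjusted p = 6.6e-06), 0.27 at 1 h (adjusted p = 0.0014) and 0.37 at 2 h (adjusted p = 3.6e-05). All 4 calls held in every setting tried, although the difference at 2 h was 0.23 after quantile normalisation. Among the high 18S libraries alone the difference was 0.50 at 0.5 h and 0.39 at 1 h, and among the low 18S libraries 0.29 and 0.14, from 1 or 2 libraries a side.

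LPS raised Myd88 by 1.02 ± 0.06 (SE) by 2 h in LysM-Cre, or 2.02-fold (adjusted p = 4.3e-12), and by 1.07 in FosKO, or 2.10-fold (adjusted p = 1.6e-12). The difference between these rises was 0.06 with an interval of -0.12 to 0.23 (adjusted p = 0.74). At 0.5 h the rise was called in FosKO, at 0.26 (adjusted p = 0.0079), but not without FosKO replicate 3, the library at 11.66. In LysM-Cre it was 0.14 (adjusted p = 0.19). In fits of only the groups compared these calls turned round, with adjusted p of 0.23 in FosKO and 0.029 in LysM-Cre, and the difference between the genotypes in that rise was not called (0.12, adjusted p = 0.81).

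The stretches around the start sites of Myd88 and Irak2 are shown because these were the 2 members higher in the libraries labelled FosKO at all 4 times, and FOS, a subunit of the factor AP-1, is the protein the genotype is named for. Each runs from 250 bases before the RefSeq start to 50 bases from it, 5′ to 3′ on the gene's own strand, on GRCm38.p6, and capitals mark the only match to a searched motif.
Myd88, chr9:119339969-119340268, minus strand: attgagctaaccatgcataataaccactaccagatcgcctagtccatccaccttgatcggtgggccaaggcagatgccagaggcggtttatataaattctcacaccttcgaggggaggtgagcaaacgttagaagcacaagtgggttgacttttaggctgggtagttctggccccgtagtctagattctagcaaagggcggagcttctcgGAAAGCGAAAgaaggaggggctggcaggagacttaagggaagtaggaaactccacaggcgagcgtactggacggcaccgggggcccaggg
Irak2, chr6:113638217-113638516, plus strand: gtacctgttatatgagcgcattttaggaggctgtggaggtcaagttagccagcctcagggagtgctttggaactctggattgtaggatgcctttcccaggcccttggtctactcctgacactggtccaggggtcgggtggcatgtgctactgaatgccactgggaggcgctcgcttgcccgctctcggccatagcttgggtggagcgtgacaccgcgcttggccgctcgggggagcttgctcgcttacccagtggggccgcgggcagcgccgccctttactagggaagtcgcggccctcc
A set of 4 motifs was searched on both strands in 10 RefSeq promoters of 7 members, Myd88, Tirap, Ticam1, Irak1, Irak2, Irak3 and Irak4. Cd14, Ly96 and Ticam2 were not searched. The AP-1 motif TGANTCA was in none of them, where 7.81% of 32851 promoters of this length held it. The CRE motif TGACGTCA was also in none, against 1.79% of all promoters, and so was the NF-kB consensus, against 4.51%. The IRF motif GAAANNGAAA, which 3.44% of promoters held, matched once, in Myd88, as GAAAGCGAAA from base -40 to base -31 on the strand printed above. A match describes letters in this window and no more, and binding was not measured. The Myd88 window lies inside the longer gene span given above, which comes from GENCODE.

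Tirap encodes the membrane adaptor that brings MyD88 to TLR4 (chr9:35184551-35200291, minus strand), and it was the only member that first fell and then rose. In LysM-Cre its libraries were at 9.34, 9.28 and 9.34 before LPS, 9.24, 9.24 and 9.20 after 0.5 h, then 8.87, 8.86 and 8.82 after 1 h and finally 9.77, 9.84 and 9.88 after 2 h. In the libraries labelled FosKO they were at 9.35, 9.36 and 9.31, then 9.26, 9.20 and 9.26, then 8.90, 8.84 and 8.92, and at 2 h 9.64, 9.70 and 9.63. The genotypes overlapped at the first 3 times and separated at 2 h, with all FosKO libraries below all LysM-Cre libraries. Tirap fell by 0.47 on the log2 scale at 1 h in LysM-Cre (adjusted p = 3e-10) and fell by 0.45 in FosKO (adjusted p = 6.5e-10). From 1 h to 2 h it rose by 0.98 ± 0.03 (SE) in LysM-Cre, or 1.97-fold (adjusted p = 2.1e-15), and by 0.77, or 1.70-fold, in FosKO (adjusted p = 7.7e-14). At 2 h Tirap was lower in FosKO by a log2 difference of -0.17 ± 0.03 (adjusted p = 2e-04), and its response from 0 h to 2 h was smaller by -0.19 ± 0.05 (adjusted p = 0.0071). Both calls held in every setting tried, with adjusted p of at most 0.00573 and 0.0304.

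Ticam1 encodes TRIF, the adaptor of the interferon branch (chr17:56269319-56276786, minus strand). Its LysM-Cre libraries were at 9.53, 9.53 and 9.47 before LPS, 9.59, 9.61 and 9.67 after 0.5 h, then 10.18, 10.20 and 10.22 after 1 h and finally 9.90, 9.91 and 9.89 after 2 h. The libraries labelled FosKO were at 9.79, 9.79 and 9.77, then 9.82, 9.92 and 9.83, then 10.17, 10.25 and 10.22, and at 2 h 9.92, 9.98 and 9.88. The genotypes were apart at 0 h and 0.5 h, with every FosKO library higher, and overlapped at 1 h and 2 h. Ticam1 peaked at 1 h in both genotypes and then fell by 0.30 in LysM-Cre (adjusted p = 7.5e-08) and fell by 0.29 in FosKO (adjusted p = 1.4e-07), the only member to rise and fall within the course.

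The genotype difference in Ticam1 was 0.27 ± 0.03 (SE) before LPS (adjusted p = 1.1e-06) and 0.23 at 0.5 h (adjusted p = 5.2e-06), and both calls held in every setting tried. At 1 h it was 0.01, with an interval of -0.05 to 0.08, and at 2 h 0.03, with an interval of -0.04 to 0.09. LPS raised Ticam1 by 0.69 by 1 h in LysM-Cre, or 1.61-fold, and by 0.43 in FosKO, or 1.35-fold. The difference between these rises was -0.26 ± 0.04 (adjusted p = 0.0021), and at 2 h it was -0.25 ± 0.04 (adjusted p = 0.00061). The difference at 2 h held in every setting, while that at 1 h was -0.21 and not called when only libraries with high 18S were kept. In the high 18S libraries the rise by 1 h was 0.67 in LysM-Cre, from a single library, and 0.45 in FosKO, and in the low 18S libraries it was 0.70 and 0.39. The early rise in LysM-Cre, 0.12 at 0.5 h (adjusted p = 0.025), was lost after quantile normalisation, with high 18S libraries alone, in a fit of only the groups compared and without LysM-Cre replicate 3 at 0 h or replicates 2 or 3 at 0.5 h. The rise by 2 h in FosKO, 0.15 (adjusted p = 0.00038), was 0.04 and not called after quantile normalisation.

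Ticam2 encodes TRAM, the bridge between TLR4 and TRIF (chr18:46557291-46574533, minus strand). It shares 838 exon bases, 14.5% of its exon length, on the same strand with Tmed7, which was at 11.89 to 12.30, so the division of reads between the pair is uncertain. Its LysM-Cre libraries were at 9.01, 8.99 and 9.08 before LPS and 10.29, 10.35 and 10.41 at 2 h. The libraries labelled FosKO were at 9.09, 9.09 and 9.33 before LPS and 10.20, 10.25 and 10.30 at 2 h. All 2 h libraries thus lay above all earlier ones, which reached 9.49 at most in LysM-Cre and 9.47 in FosKO. Ticam2 rose by 1.32 ± 0.08 (SE) by 2 h in LysM-Cre, or 2.5-fold (adjusted p = 7.3e-12), and by 1.08 in FosKO, or 2.11-fold (adjusted p = 2e-10). The difference between the rises was -0.25 with an interval of -0.48 to -0.01 and was not called (adjusted p = 0.16). Genotype differences at the 4 times ran from -0.10 to 0.14 with none called, and their intervals reached from -0.27 to 0.31.

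**Figure D2:**
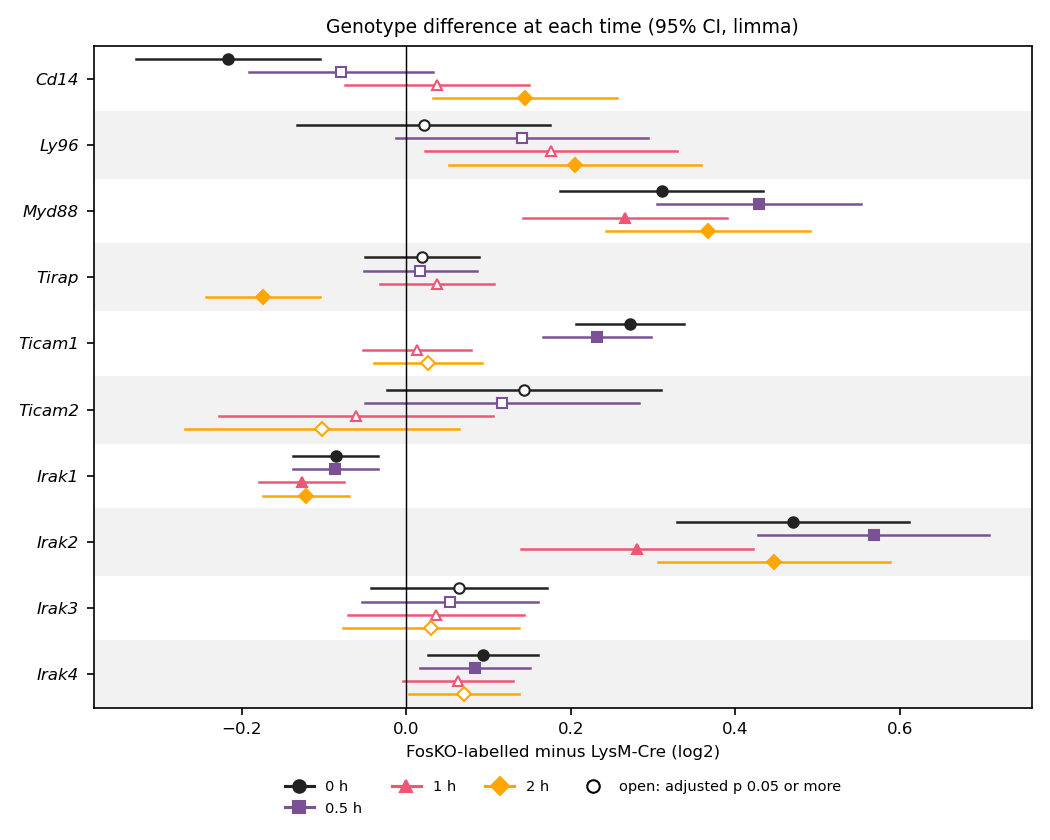
Difference between libraries labelled FosKO and LysM-Cre (log2, horizontal axis) for each gene at 0, 0.5, 1 and 2 h, with 95% confidence intervals from limma, filled where the adjusted p was under 0.05. Myd88 and Irak2 lie to the right of 0 at all 4 times, up to 0.57 for Irak2 at 0.5 h, and Irak1 lies to the left at all 4.

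Irak2 encodes the IRAK family member that sustains signalling from the MyD88 complex (chr6:113638467-113695026, plus strand). It spanned the widest range of the 10 genes, 2.07 between its lowest and highest group means. In LysM-Cre its libraries were at 10.50, 10.50 and 10.44 before LPS, 10.63, 10.70 and 10.64 after 0.5 h, then 11.34, 11.36 and 11.45 after 1 h and finally 12.05, 12.10 and 12.16 after 2 h. In the libraries labelled FosKO they were at 10.81, 10.97 and 11.07, then 11.14, 11.12 and 11.42, then 11.55, 11.73 and 11.72, and at 2 h 12.53, 12.55 and 12.58. No library of one genotype overlapped with the other at the same time, and ordered by mean the 8 groups overlapped only between FosKO at 0.5 h and LysM-Cre at 1 h. Irak2 was higher in FosKO by 0.47 ± 0.07 (SE) at 0 h, or 1.38-fold (adjusted p = 1.4e-05), and by 0.57 at 0.5 h, or 1.48-fold (adjusted p = 9.5e-07). At 1 h it was higher by 0.28 (adjusted p = 0.0027) and at 2 h by 0.45, or 1.36-fold (adjusted p = 1.6e-05). The 4 calls held in every setting, with an adjusted p of 0.0184 at most. The difference at 2 h was 0.29 after quantile normalisation, and at 1 h the difference was 0.38 among high 18S libraries and 0.14 among low 18S libraries.

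LPS raised Irak2 by 1.63 by 2 h in LysM-Cre, or 3.09-fold (adjusted p = 1.4e-14), and by 1.60 in FosKO, or 3.04-fold (adjusted p = 1.6e-14). These rises differed by -0.02, with an interval of -0.22 to 0.18 (adjusted p = 0.92). By 1 h the rise was 0.91 in LysM-Cre and 0.72 in FosKO, and the difference of -0.19 was not called (adjusted p = 0.69). The rise at 0.5 h was called in FosKO, at 0.28 (adjusted p = 0.014), but not without FosKO replicate 1 at 0 h or replicate 3 at 0.5 h, and in LysM-Cre it was 0.18 (adjusted p = 0.14). Fits of only the groups compared gave the reverse, with adjusted p of 0.30 in FosKO and 0.0084 in LysM-Cre. Irak2 and Myd88, which sit in the same receptor complex, were thus both higher in the libraries labelled FosKO before LPS and after it, and for neither was a difference in the response itself called.

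Irak1 encodes the kinase that IRAK4 activates in that complex and that is degraded as protein after stimulation (chrX:74013914-74023918, minus strand). Its mRNA hardly moved, with all 24 libraries between 10.94 and 11.15. The LysM-Cre libraries were at 11.10, 11.15 and 11.13 before LPS and at 11.05, 11.07 and 11.14 at 2 h. The libraries labelled FosKO were at 11.04, 11.06 and 11.00 before LPS and at 10.98, 10.98 and 10.94 at 2 h. FosKO libraries lay below all LysM-Cre libraries of the same time at each of the 4 times, although the distances were small. The differences were -0.09 ± 0.02 (SE) at 0 h (adjusted p = 0.01), -0.09 at 0.5 h (adjusted p = 0.0083), -0.13 at 1 h (adjusted p = 0.00041) and -0.12 at 2 h (adjusted p = 0.00042). Quantile normalisation made the differences -0.15, -0.14 and -0.21 at 0, 0.5 and 2 h. The call at 2 h held in every setting. At 0 h the call needed LysM-Cre replicate 2 and FosKO replicate 3 and was not made in a fit of only the groups compared, and at 0.5 h it needed FosKO replicate 3. When only high 18S libraries were kept, the differences were -0.08 at 0.5 h and -0.12 at 1 h and neither was called.

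In LysM-Cre the change of Irak1 from 0 h to 2 h was -0.04, with an interval of -0.09 to 0.02 (adjusted p = 0.22), but without LysM-Cre replicate 3 at 2 h it was -0.06 and called (adjusted p = 0.04). In FosKO it fell by 0.07 at 1 h (adjusted p = 0.041) and fell by 0.07 at 2 h (adjusted p = 0.016), calls that were both lost without FosKO replicate 2 at 0 h and in fits of only the groups compared. The fall at 2 h was not called either when FosKO replicate 3 at 2 h was left out, nor was the fall at 1 h in 6 further settings. Quantile normalisation moved the change at 2 h to -0.23 in LysM-Cre and to -0.29 in FosKO, both called.

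Irak4, the kinase that starts the cascade (chr15:94543643-94581815, plus strand), was lower after 2 h of LPS in both genotypes. Its LysM-Cre libraries were at 9.71, 9.73 and 9.72 before LPS and at 9.52, 9.60 and 9.50 at 2 h. The libraries labelled FosKO were at 9.77, 9.86 and 9.81 before LPS and at 9.61, 9.66 and 9.56 at 2 h. In both genotypes the 2 h libraries lay below all untreated ones. Irak4 fell by 0.18 in LysM-Cre (adjusted p = 5.8e-05) and fell by 0.20 in FosKO (adjusted p = 1.3e-05), and at 0.5 h and 1 h no change was called in either, although after quantile normalisation the changes at 1 h, -0.08 and -0.12, were. It was higher in FosKO by 0.09 ± 0.03 (SE) at 0 h (adjusted p = 0.029) and by 0.08 at 0.5 h (adjusted p = 0.043). Both of these calls were lost after quantile normalisation, with high 18S libraries alone, in fits of only the groups compared and without several single libraries (at 0 h LysM-Cre replicates 1 or 3 or FosKO replicates 2 or 3, at 0.5 h LysM-Cre replicates 1 or 2 or FosKO replicates 1 or 3). The call at 0.5 h was also lost with no filter and with no variance trend. At 1 h and 2 h the differences were not called but were similar in size, at 0.06 (adjusted p = 0.14) and 0.07 (adjusted p = 0.085). The difference at 2 h was called without LysM-Cre replicate 2 or without FosKO replicate 3 of that time.

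Irak3 encodes IRAK-M, which holds back the MyD88 complex (chr10:120141648-120202130, minus strand). Its LysM-Cre libraries were at 9.27, 9.29 and 9.26 before LPS and at 9.71, 9.79 and 9.80 at 2 h. The libraries labelled FosKO were at 9.23, 9.32 and 9.46 before LPS and at 9.89, 9.77 and 9.73 at 2 h. The genotypes overlapped at all 4 times, and their differences ran from 0.03 to 0.06 with no interval beyond -0.08 to 0.17. LPS raised Irak3 by 0.49 ± 0.05 (SE) by 2 h in LysM-Cre, or 1.41-fold (adjusted p = 3.8e-08), and by 0.46 in FosKO, or 1.38-fold (adjusted p = 1e-07). The rise of 0.15 by 1 h in LysM-Cre (adjusted p = 0.026) was lost after quantile normalisation, with 18S as a term, with high 18S libraries alone and without any one of LysM-Cre replicates 1 and 3 at 0 h or 1 and 2 at 1 h.

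Set side by side by time, LPS called few of the 10 genes at 0.5 h and nearly all at 2 h. In LysM-Cre 2 were called at 0.5 h, both higher, where 7.24% of all genes were called, 5.09% higher and 2.15% lower. After quantile normalisation these were 1 higher and 1 lower, since Ticam1 lost its call and Tirap gained one at -0.12, and Tirap was then also called in FosKO at -0.11. At 1 h 7 were called, 6 higher and 1 lower, against 35.8% of all genes, 19.2% higher and 16.5% lower, and after quantile normalisation 5 were higher and 3 lower, with Irak1 and Irak4 gained and Irak3 lost. At 2 h 9 were called, 8 higher and 1 lower, against 60.8% called and 30.6% called higher. In the libraries labelled FosKO 3 were called at 0.5 h, all higher, against 5.92% of all genes, 4.45% higher and 1.47% lower. At 1 h there were 6, 4 higher and 2 lower, against 32.6%, or 17.6% and 15%, and at 2 h all 10, 8 higher and 2 lower, against 62.1%, or 32.6% and 29.5%. Quantile normalisation gave 5 higher and 3 lower at 1 h in FosKO, and at 2 h 8 and 2 in LysM-Cre and 7 and 2 in FosKO. At 2 h 4 members, Cd14, Myd88, Ticam2 and Irak2, were called with at least a 2-fold change in each genotype, where 8.06% of all genes were in LysM-Cre and 8.56% in FosKO. After quantile normalisation only Ticam2 and Irak2 of these reached 2-fold in LysM-Cre and only Irak2 in FosKO, and without LysM-Cre replicate 3 at 2 h Myd88 was at 0.98 there. Between neighbouring times, 6 members were called from 0.5 h to 1 h in LysM-Cre (26.8% of all genes) and 9 from 1 h to 2 h (52.3%), and in FosKO 5 (27.5%) and 9 (50.7%). The median change at 2 h was 0.50 in each genotype, against -0.02 and 0.00 over all tested genes.

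**Figure D3:**
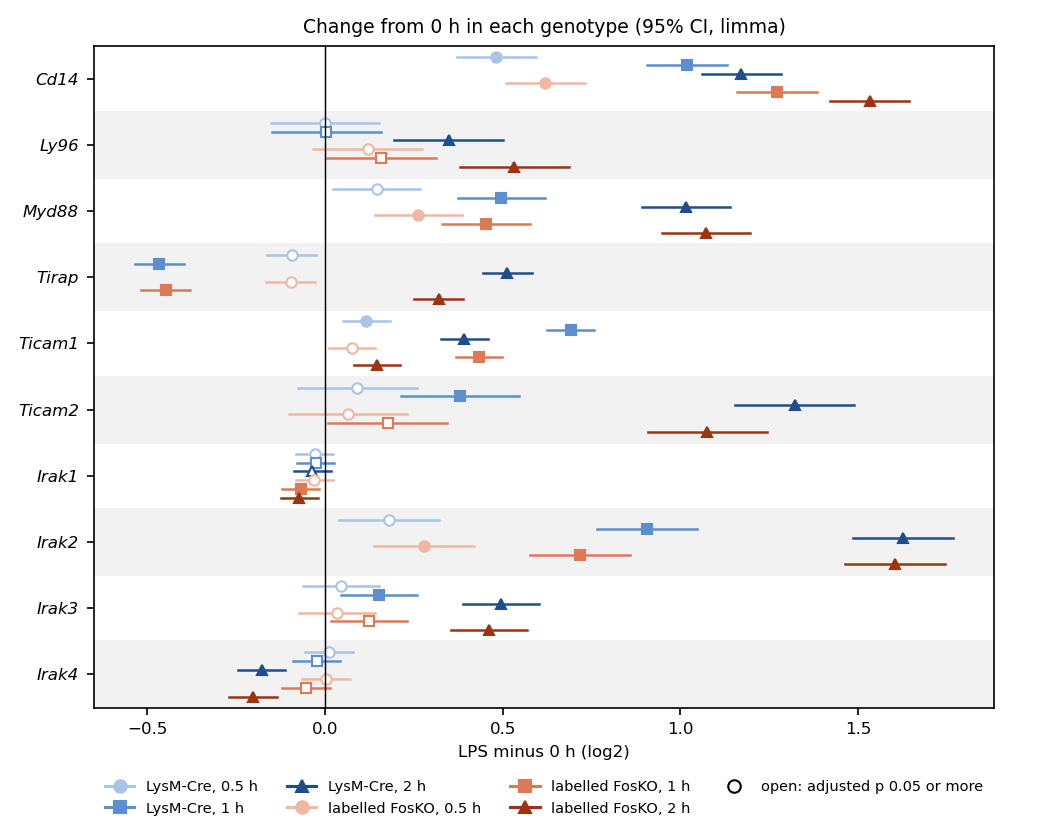
Change from 0 h (log2, horizontal axis) in LysM-Cre (blue) and libraries labelled FosKO (red) at 0.5, 1 and 2 h, with 95% confidence intervals from limma, filled where the adjusted p was under 0.05. Cd14 is filled at every time in both genotypes, Tirap changes sides between 1 h (-0.47 in LysM-Cre) and 2 h (0.51), and Irak1 stays near 0.

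The LPS response of FosKO libraries was then set against that of LysM-Cre in an interaction contrast, since a level that differs before LPS need not mean a different response. At 0.5 h limma called 0 of the 10 genes, with 0 at an unadjusted p under 0.05, where 0.115% of all genes were called. At 1 h 1 was called, Ticam1, with 2 at an unadjusted p under 0.05 and 1.22% of all genes called, 0.489% with a larger response in FosKO and 0.727% with a smaller one. At 2 h 3 were called, Cd14 with a larger rise in FosKO and Tirap and Ticam1 with smaller ones. Of all genes 15% were called, 7.27% larger and 7.7% smaller, and 4 members had an unadjusted p under 0.05. Every share of all genes given here is of those called, since the share at an unadjusted p under 0.05 was not computed. The balance of larger and smaller responses over all called genes depended on scaling. Larger ones were 48.5% of those called at 2 h as deposited, 37.6% with TMM factors and 40% after quantile normalisation. For Ticam1 the smaller rise went with a higher level before LPS and no called difference at 1 h or 2 h, whereas Tirap had no called difference until 2 h and Cd14 started lower.

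**Figure D4:**
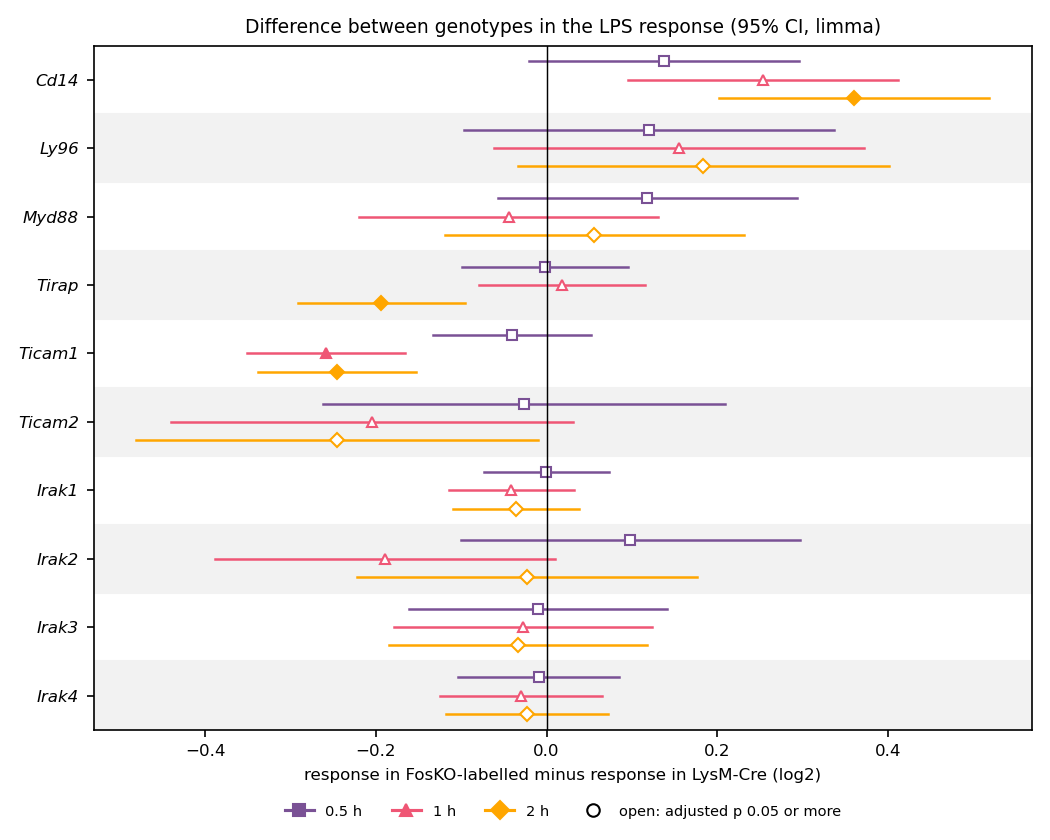
Response to LPS in libraries labelled FosKO minus the response in LysM-Cre (log2, horizontal axis) at 0.5, 1 and 2 h, with 95% confidence intervals from limma, filled where the adjusted p was under 0.05. The filled points are Cd14 at 2 h (0.36), Tirap at 2 h (-0.19) and Ticam1 at 1 h (-0.26) and 2 h (-0.25).

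To set levels of different genes beside each other, values were taken to the linear scale and divided by the length of all exons in kb, which ignores which transcripts are used. In untreated LysM-Cre macrophages Cd14 was highest of the 10 by this level per kb, at 9481, followed by Myd88 at 747, Irak1 at 473 and Irak2 at 324. Ly96 at 255 and Ticam1 at 244 came next, then Irak3 and Irak4, both at 168, Tirap at 130 and Ticam2 at 90.2. After 2 h of LPS Cd14 was at 21360 per kb, Myd88 at 1510 and Irak2 at 999.8, so that Irak2 had passed Irak1, at 461, and Ticam2 at 226 had passed Tirap at 185. In the libraries labelled FosKO the levels per kb of Irak2 and Irak1 were already alike before LPS, at 449 and 446, and at 2 h they were 1362 and 424.

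Of the 10 genes 4 spanned at least 1 on the log2 scale between group means, and the genes whose values followed theirs most closely are given as a description over the 24 libraries, which share time and genotype. For Irak2 these were Mtmr14, Rhbdf2 and Rap1b, with Pearson r of 0.996, 0.994 and 0.993. For Myd88 they were Dync1li1, Mob1a and Trex1, at 0.990, 0.989 and 0.988, for Ticam2 Rsbn1, Psma6 and 4930453N24Rik, at 0.986, 0.982 and 0.981, and for Cd14 Sdc4, Clcf1 and Il1b, at 0.983, 0.982 and 0.982.

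Other genes of the TLR4 pathway were taken from a list of 45, of which 44 were tested. Between genotypes 22 of them were called higher and 4 lower before LPS, where 35.4% of all tested genes were called, 19.5% higher and 15.9% lower. After 0.5 h the counts were 20 and 4 (21.2% and 19.7% of all genes), after 1 h 17 and 5 (18% and 15.9%), and after 2 h 18 and 7 (24.4% and 20.3%). The medians of the list were 0.11, 0.07, 0.08 and 0.06, against medians of all tested genes between -0.00 and 0.00. At all 4 times 11 were called higher and 3 lower, against 11.4% and 7.11% of all genes, and 22 were called at 3 or more times, 18 of them higher and 4 lower, against 29.6% of all genes in either direction. The calls of the pathway list, here and below, were read from the deposited values alone and not under the other settings. For all called genes at 0 h, quantile normalisation moved the share of higher from 55.1% to 45.3%.

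Among genes of the receptor and of LPS handling, Cd180 and its partner Ly86, which form a TLR4-like complex, were higher in the libraries labelled FosKO at all 4 times, Cd180 by 0.34 to 0.42 and Ly86 by 0.39 to 0.57. Hsp90b1, the chaperone that folds Toll-like receptors, was higher by 0.11 to 0.17. Tlr4 itself, named here after its values were seen, had a mean of 11.57 ± 0.05 (SD, n = 3) in LysM-Cre and 11.62 in FosKO before LPS. It fell by 0.92 by 2 h in LysM-Cre and fell by 0.49 in FosKO, a difference in response of 0.43 (adjusted p = 0.00012). Tlr4 was higher in FosKO by 0.14 at 1 h (adjusted p = 0.027) and by 0.49 ± 0.05 (SE) at 2 h (adjusted p = 5.6e-08). The receptor therefore fell while the co-receptors Cd14 and Ly96 rose.

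In the MyD88 branch, Peli1, an E3 ligase that acts on IRAK proteins, was higher in FosKO by 0.47 to 0.59, Map3k8, the kinase TPL-2, by 0.27 to 0.50, and Pik3ap1, the adaptor BCAP, by 0.19 to 0.31, while Ikbkg, the regulatory subunit of the IκB kinase, was lower at all 4 times, by differences from -0.15 to -0.21. Chuk and Nfkb1 were each called higher at 3 of the 4 times, by up to 0.11 and 0.15. In the TRIF branch the kinase Tbk1 was higher by 0.15 to 0.22 and its adaptors Tank and Azi2 by 0.27 to 0.58 and by 0.41 to 0.59. Ikbke was higher by 0.60, 0.72 and 0.30 at 0, 0.5 and 1 h, with 0.06 at 2 h not called, Tbkbp1 was called at the 3 LPS times, by up to 0.40, and Ripk3, a kinase that TRIF engages in cell death, was lower by differences from -0.24 to -0.37. Among inhibitors, Socs1 was higher by 0.41 to 1.08 and the phosphatase Ptpn6 by 0.20 to 0.29, while Il1rl1, the IL-33 receptor, was lower by differences from -0.83 to -1.29. Tnfaip3, Tollip and Cyld were each called higher at 3 times, and Inpp5d was called lower at 3 times.

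LPS called 24 of the 44 pathway genes higher and 11 lower at 2 h in LysM-Cre, where 60.8% of all genes were called and 30.6% were called higher. The largest changes were those of Socs1 (3.91), Tnfaip3 (2.96), Peli1 (2.87), Map3k8 (1.98) and Nfkb1 (1.92), the first 2 of them inhibitors. All 5 were larger than the rise of Irak2, the largest among the 10 co-receptors and adaptors, at 1.63.

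**Figure D5:**
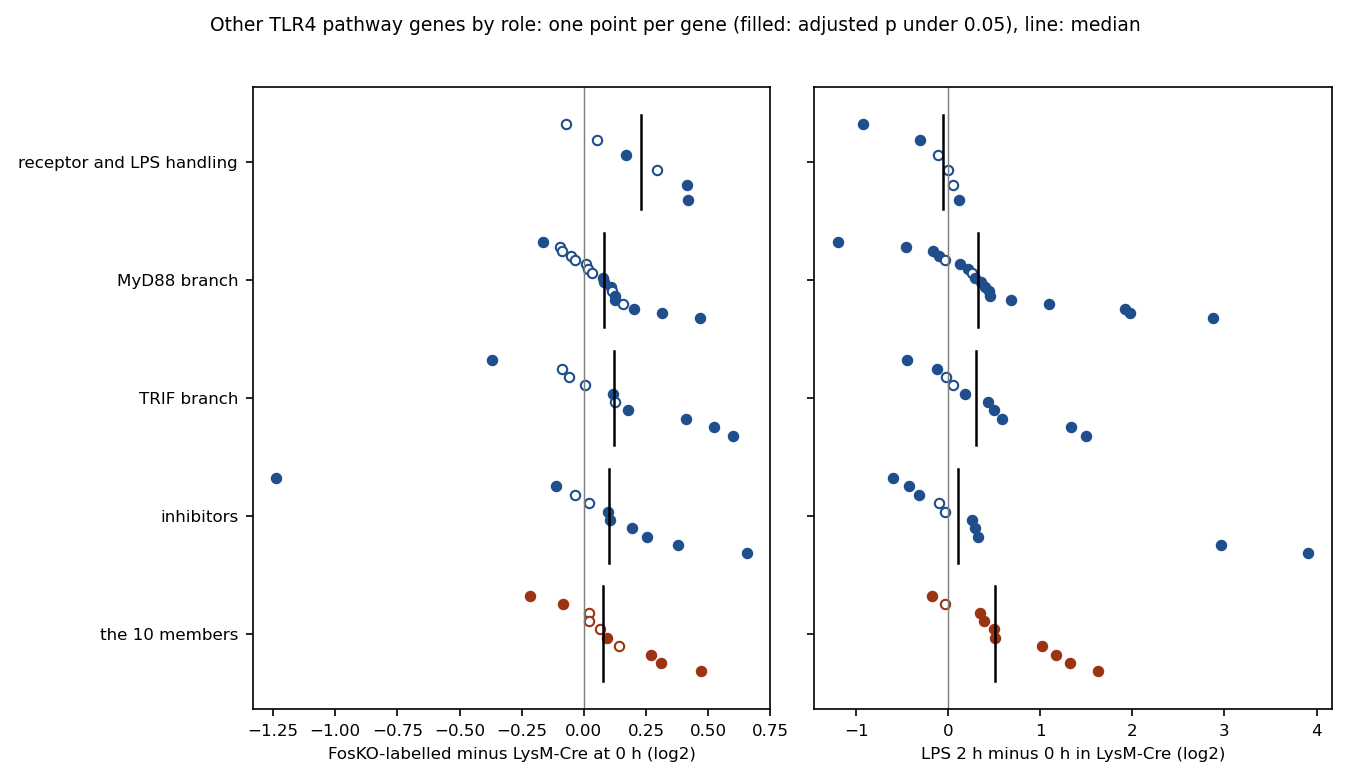
Each point is a gene of the TLR4 pathway, grouped by role on the vertical axis, with the difference between libraries labelled FosKO and LysM-Cre at 0 h on the left and the change after 2 h of LPS in LysM-Cre on the right (log2, horizontal axes). Filled points had an adjusted p under 0.05 and lines mark medians, which at 2 h of LPS was 0.50 for the 10 co-receptors and adaptors.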

How the data were processed

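BMDM RNA was sequenced on a HiSeq platform from strand-specific, single-end TruSeq libraries. According to the submitters' processing notes, the authors used STAR 2.5.2a, RSEM 1.2.31 and DESeq2 1.16.1. The study's methods name RefSeq genes, whereas the table carries Ensembl identifiers. The deposited values were log2 values that the authors had already normalised, 1 per gene and library, and ran from -2.22 to 19.39. The transformation is not named in the sources used here. If low values were shrunken, differences in weakly expressed genes are understated. Whole reads could not be recovered, and the study's methods give only a typical read yield, so the depth of each library is unknown and no counting interval is given.

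Tested genes had a linear value (2 raised to the log2 value) of 5 or more in 3 or more libraries. All 24 libraries entered 1 limma fit (limma 3.58.1, R 4.3.3) with 8 group means, no other term, 16 residual degrees of freedom and a variance trend. From it 17 comparisons were drawn, each two-sided and adjusted by the Benjamini-Hochberg method over all 13901 tested genes. With 3 libraries a side, exact permutation tests of single genes were not used, since they cannot reach the threshold. The fit was first tested on simulated data.

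The 10 members, the pathway list and the marker lists were chosen with earlier results of these data known. All members were named, and of the pathway list those called between genotypes at 3 or more times and the 5 with the largest LPS change at 2 h in LysM-Cre. Coordinates and exon lengths are those of GENCODE on GRCm38, and promoters those of RefSeq on GRCm38.p6. Alternatives were quantile normalisation, TMM factors, other filters, a pseudocount, no variance trend, a replicate block, 18S as a term or a restriction, fits of only the groups compared, and leaving out each library.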

Additional observations from a re-analysis of the deposited data

Results flagged for a closer look

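For 3 of the 10 genes the response to LPS differed between the genotypes by the test of the difference itself in limma, 1 of them at 1 h, where 1.22% of all tested genes were called, and 3 at 2 h, where 15% were. The rise of Cd14 by 2 h was larger in the libraries labelled FosKO by 0.36 on the log2 scale (adjusted p = 0.0023). Its level there started below that of LysM-Cre, while its place at 2 h depended on the scaling, 0.14 above as deposited and -0.12 after quantile normalisation. The response of Tirap by 2 h was smaller in FosKO by -0.19 (adjusted p = 0.0071), although its fall at 1 h was alike, with a difference between genotypes of 0.02. The rise of Ticam1 was smaller in FosKO by -0.26 at 1 h (adjusted p = 0.0021) and by -0.25 at 2 h (adjusted p = 0.00061). Untreated cells enter the values at both times, so the pair of results for Ticam1 are not independent of each other. The groups are used as labelled. The level of Fos did not follow the labels at 3 of the 4 times, while its rise by 0.5 h was 2.41 in LysM-Cre and 0.15 in FosKO.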

How the results depend on the processing

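Of 170 values, 10 genes in 17 comparisons, 90 were called, and 71 of these kept call and direction under all 10 other settings and all 24 fits without 1 library. Of the 80 not called, 61 were called in no setting. The only called value that reversed was Cd14 at 2 h between genotypes, at -0.12 after quantile normalisation. With high 18S libraries only, the members called between genotypes at 0.5 h went from 5 to 3, those called for LPS at 0.5 h in LysM-Cre from 2 to 1, and those for the difference in response at 1 h from 1 to 0. In a fit of only the groups compared, the count for LPS at 0.5 h in FosKO went from 3 to 1 and that in LysM-Cre from 2 to 3, with Myd88 and Irak2 gained and Ticam1 lost. Leaving out 1 library gave 3 to 5 genes between genotypes at 0.5 h (3 without FosKO replicate 3 of that time), 1 to 2 for LPS at 0.5 h in LysM-Cre (1 without replicate 3 at 0 h or replicates 2 or 3 at 0.5 h), 1 to 3 for LPS at 0.5 h in FosKO (1 without replicate 3) and 1 to 2 for the difference in response at 1 h (2 without FosKO replicate 1 at 0 h, which adds Cd14). The share of all genes called was not computed for these fits on fewer libraries, so their counts have no background beside them. The causes were not tested.

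Quantile normalisation moved the share of higher among all called genes from 53.1% to 42.8% between genotypes at 1 h, from 54.6% to 43.0% at 2 h, and from 50.3% to 75.2% down to 35.3% to 50.5% over the 6 comparisons of LPS with 0 h, while the median of all genes moved by less than 0.1. Deviations of libraries with the same replicate number correlated at medians of 0.006 to 0.027, against -0.011 for different numbers. Pairs with different numbers ran from -0.585 to 0.676, and single pairs with the same number from -0.53 to 0.706. Since not every such pair exceeded 0.1, the numbers were not taken to pair the libraries. In 17 of 24 libraries the best correlation was with a library of the same number, a hint of pairing from the data that the labels do not give. A replicate block added the call of Ly96 between genotypes at 1 h (0.18) and for LPS at 1 h in FosKO (0.16), which took these counts from 3 to 4 and from 6 to 7, and changed no other call of the 10 genes. The share of all genes called with this block was not computed. The depth of each library is unknown and limits what small differences can show.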
